A study of Mus musculus with 6 samples.

Results

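Ccl2, Ccl7, Ccl8 and Ccl12 encode mouse CC chemokines known to attract monocytes, and Ccr2 encodes CCR2, the main receptor on monocytes for Ccl2, Ccl7 and Ccl12. These 5 genes were taken by symbol from the 32285 genes of the count tables, and their UMIs (unique molecular identifiers, each marking 1 captured RNA molecule) were summed for each library and each cell class defined by marker genes. Cells of the heart apart from its cardiomyocytes were profiled by single-cell RNA sequencing in male mice aged 8 to 12 weeks, sorted as live cells with Calcein-AM and DAPI and prepared with 10x 3' chemistry. The study compared mice lacking Trpm4, a calcium-activated cation channel, with wild-type mice in the first days of a myocardial infarction. Wild-type (WT) mice were C57BL/6JRj, and knockout (KO) mice were B6.Cg-Trpm4tm1.2-PG. Each genotype was studied 24 h after a sham operation, 24 h after tying off the left anterior descending artery (LAD) and 72 h after that ligation. The sham hearts also had surgery, and no unoperated heart was compared. Each of the 6 groups is 1 library made from the pooled cells of 4 mice, so no difference has a replicate check and no test was made. All 95% intervals cover counting error only.

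Chemokines of this group are small secreted proteins, most of which bind CCR2, and that receptor brings monocytes out of the bone marrow into blood and draws them into injured tissue. Ccl2 is the major ligand in most inflamed tissues and is induced by NF-kB downstream of interleukin-1 and tumour necrosis factor. Ccl7 shares its receptor and also binds other CC receptors, Ccl8 acts mainly through receptors other than CCR2 in mice, and Ccl12 is a rodent CCR2 ligand close to Ccl2. In the infarcted heart, monocytes carrying the receptor enter during the first days and become macrophages, and most macrophages that live in the healthy heart lack it.

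The 4 ligand genes lie side by side on chromosome 11 and all run on the plus strand (GRCm38). Ccl2 (ENSMUSG00000035385) spans chr11:82035571-82037453, Ccl7 (ENSMUSG00000035373) chr11:82045712-82047525, Ccl12 (ENSMUSG00000035352) chr11:82101845-82103400 and Ccl8 (ENSMUSG00000009185) chr11:82115185-82116799. The 81229 bases from the start of Ccl2 to the end of Ccl8 hold 5 genes, the fifth being the eotaxin gene Ccl11. Ccr2 (ENSMUSG00000049103) lies elsewhere, at chr9:124101950-124113557 on the plus strand. Although the genes are related, no pair of the 5 members shared any stretch of 31 bases in its transcripts. Ccl2 is overlapped on the opposite strand by Gm17268, which had 0 UMIs in all 6 libraries.

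Ccl12 and Ccl8 are neighbours whose levels, given further on, were both highest in the same group of interferon-marked macrophages, so the 250 bases before each start site are shown (RefSeq, GRCm38.p6, plus strand, chr11:82101595-82101844 for Ccl12 and chr11:82114935-82115184 for Ccl8, with the TATA box TATAAA in capitals).
Ccl12: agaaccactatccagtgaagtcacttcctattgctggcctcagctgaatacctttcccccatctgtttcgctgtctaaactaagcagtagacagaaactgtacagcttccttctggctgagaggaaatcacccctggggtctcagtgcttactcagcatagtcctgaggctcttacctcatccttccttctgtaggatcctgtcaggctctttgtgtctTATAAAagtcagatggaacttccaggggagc
Ccl8: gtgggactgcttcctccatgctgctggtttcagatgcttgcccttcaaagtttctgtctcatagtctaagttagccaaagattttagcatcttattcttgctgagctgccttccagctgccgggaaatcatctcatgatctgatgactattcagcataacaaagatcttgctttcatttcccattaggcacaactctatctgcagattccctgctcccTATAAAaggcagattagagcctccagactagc
The TATA box lay 31 to 26 bases before the start in Ccl12 and 32 to 27 bases before it in Ccl8. Of 32851 mouse promoter windows, 12.4% held TATAAA on either strand. Both strands were also searched for an NF-kB motif (GGGA, any 4 bases, then CC), an AP-1 motif (TGANTCA) and an interferon-stimulated response element (GAAA, any 2 bases, then GAAA), which 17.6%, 6.75% and 2.98% of all windows held. The Ccl12 and Ccl8 windows held none of these. Windows were matched for 3 of the 5 members. That of Ccr2, chr9:124101933-124102182, lies mostly inside the gene as placed above, since RefSeq puts the start further downstream, and it is not described.

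The 6 libraries held 34940 cells and 199708815 UMIs as deposited, with 3625 to 7286 cells and 20995280 to 45649061 UMIs per library, and 32085 cells were kept. The KO library at 72 h stood apart in depth, with a median of 1351 UMIs per kept cell against 3076 to 8011 in the other 5. Its monocyte and macrophage cells had a median of 1256.5 UMIs against 9694.5 to 11812 elsewhere, and its fibroblasts 1088 against 8782.5 to 10699. Pairs of libraries shared 3 to 14 cell barcodes, at most 0.206% of the smaller library. Trpm4 was sparse, at 305, 128 and 196 UMIs in WT and 215, 140 and 54 in KO at sham, 24 h and 72 h. Scaled to the total UMIs of a library as CPM, the usual counts-per-total unit, it was lower in KO at each time, at 6.20 against 8.79, 3.46 against 5.52 and 2.57 against 4.29. Which exons the allele lacks is not given in the sources used here, so these 3' counts do not check the labels. Cells of the monocyte/macrophage class carried their defining markers in every library, with the summed level of 13 markers between 19358 and 28487 CPM.

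Ccl2 is the ligand with the broadest known role in monocyte recruitment, and over all kept cells its level was highest 24 h after ligation. In CPM over whole libraries, WT held 821 at sham, 2298 at 24 h and 1061 at 72 h, and KO held 1024, 2821 and 813. Both genotypes were highest at 24 h, with WT above and KO below its sham level at 72 h. Monocyte/macrophage cells, named from markers such as Csf1r, Lyz2 and C1qa, held most of its UMIs. Their share was 89.8% and 90.2% at sham, 91.2% and 94.4% at 24 h, and 89.9% and 67.5% at 72 h, with WT given first. KO at 72 h was the lowest, and in that library fibroblasts and dendritic cells held 12.2% and 10.6%.

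**Figure D1:**
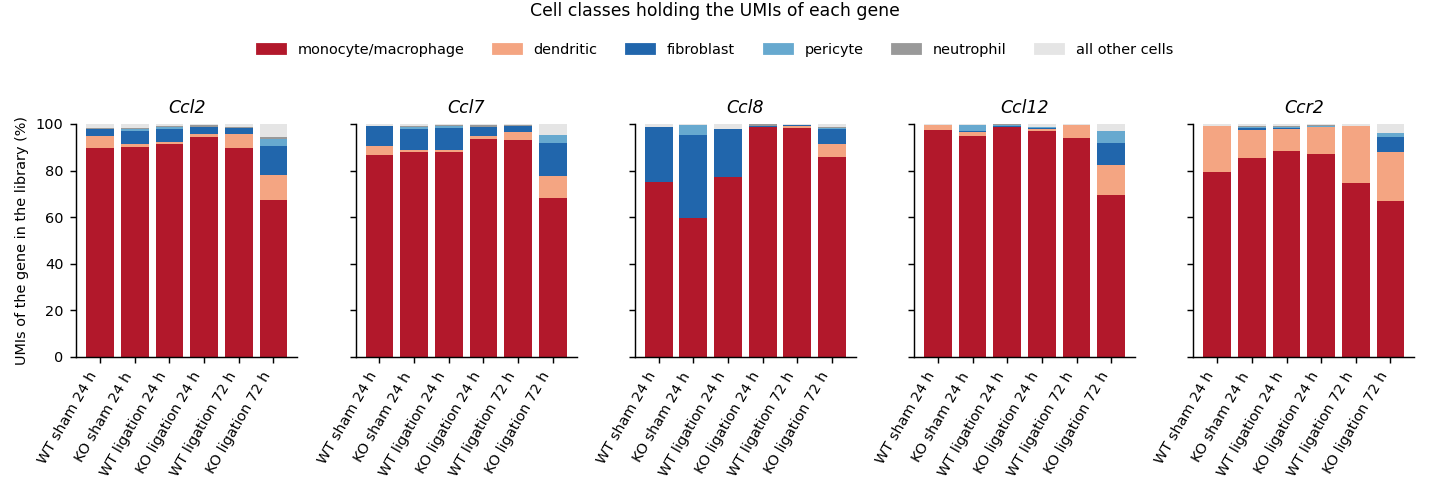
Share of each gene's UMIs by cell class (vertical axis, percent) in the 6 libraries (horizontal axis), 1 panel per gene. Monocyte/macrophage cells hold the largest part of every bar, from 59.7% for Ccl8 in KO sham to 98.9% for Ccl8 in KO at 24 h, fibroblasts hold much of the sham Ccl8 and dendritic cells much of the Ccr2.

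Levels within a class are in CPM of the UMIs summed over its cells. They did not separate sources from receivers, since monocyte/macrophage and dendritic cells held both Ccl2 and Ccr2. Ccl2 was between 1123 and 5294 CPM in monocyte/macrophage cells, between 171 and 1306 in fibroblasts and between 422 and 637 in dendritic cells, a class in which the summed macrophage markers were at 40.5% to 78.0% of their level in macrophages. It was between 26.1 and 90.3 in neutrophils and between 28.6 and 82.9 in endothelial cells. B cells, which are not a known source, gave 23.3, 63.4, 8.58 and 77.0 CPM in the 4 ligation libraries (WT and KO at 24 h, then at 72 h). These values rest on only 8, 22, 5 and 15 UMIs. The neutrophil and endothelial values overlapped that range. In the same order, neutrophils were at 29.0, 74.0, 64.2 and 90.3 CPM, each above the B cells of their library. Endothelial cells were at 82.9, 65.9, 28.6 and 32.9 CPM, above the B cells in all but KO at 72 h. For neutrophils, the gaps of 29.0 against 23.3, 74.0 against 63.4 and 90.3 against 77.0 CPM are small beside the B cell counting error. The same holds for endothelial cells at 65.9 against 63.4 CPM. The part of free RNA in these values was not tested. Pericytes ranged from 73.8 CPM in WT sham to 1468 in WT at 24 h, and the summed macrophage markers in them ranged from 1.32% to 54.4% of their level in macrophages. In WT at 24 h, 50 of the pericytes held 41 of the 412 Ccl2 UMIs, at 199 CPM, so most of that level came from the other 3 cells. The part of the macrophage markers in the dendritic and pericyte values was not tested.

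**Figure D2:**
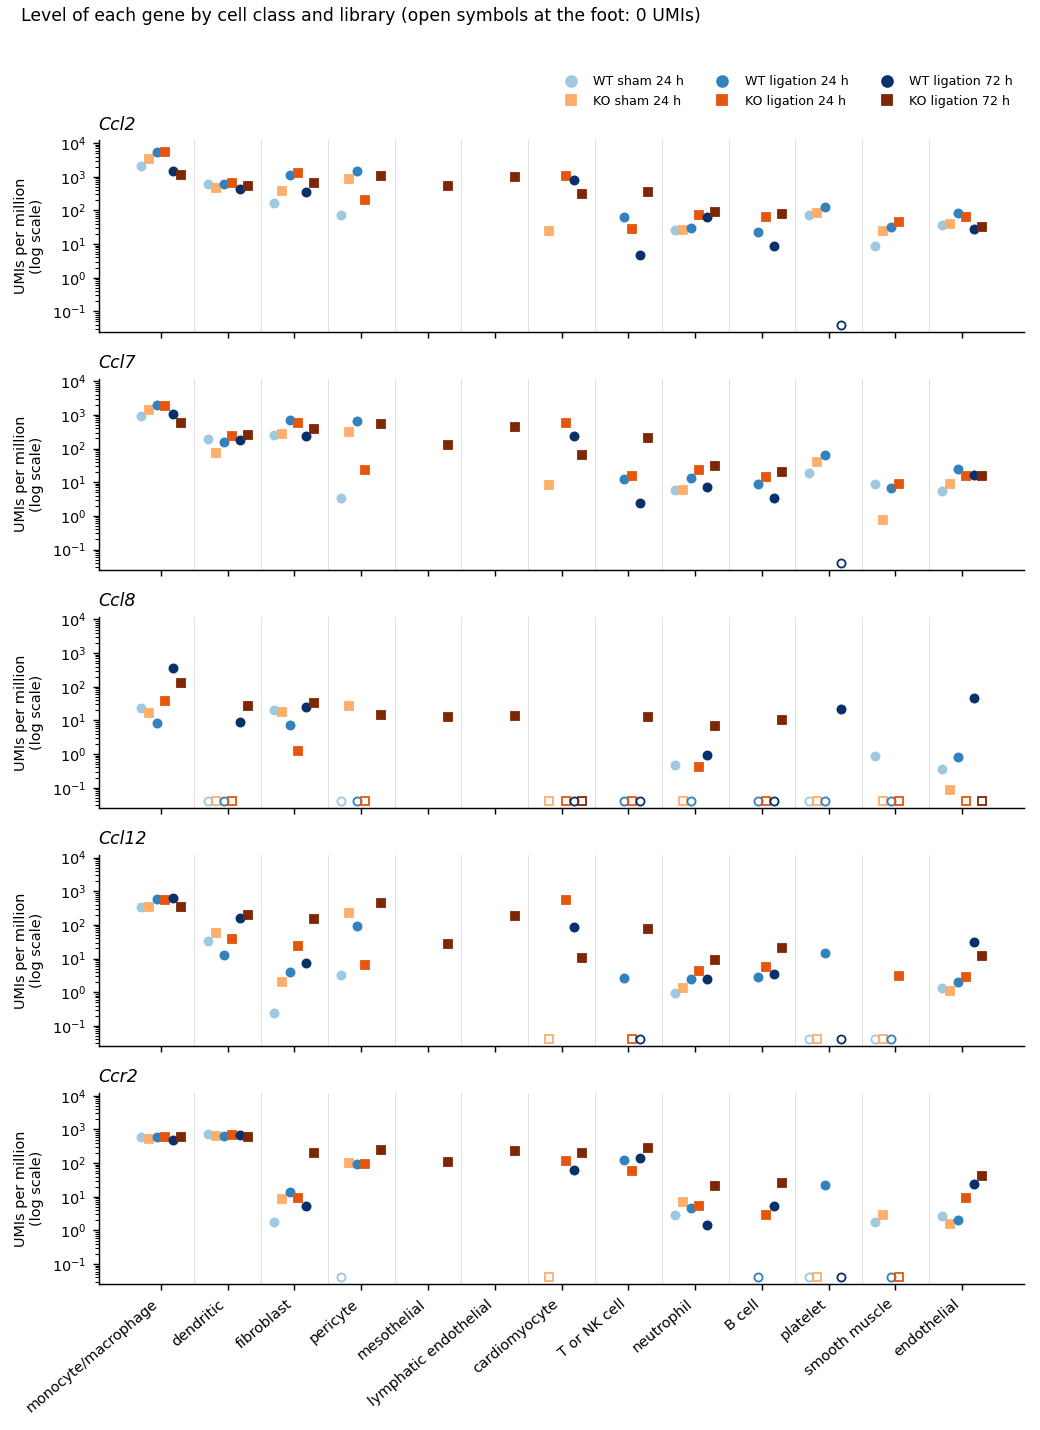
Level of each gene (CPM, log axis) by cell class and library, 1 symbol per library, with open symbols at the foot for classes with 0 UMIs. Ccl2 and Ccl7 are highest in monocyte/macrophage cells in each library and Ccl12 in all but KO at 72 h, where pericytes are at 452 CPM against 335, Ccr2 is near 600 CPM in monocyte/macrophage and dendritic cells alike, and Ccl8 stands out in monocyte/macrophage cells at 72 h.

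Over the whole monocyte/macrophage class, Ccl2 was more abundant after ligation than after sham in both genotypes and lower again at 72 h. At sham, 24 h and 72 h, WT cells held 2047, 5274 and 1508 CPM and KO cells 3355, 5294 and 1123 CPM. The genotypes were almost equal at 24 h, KO was the higher at sham, and WT was the higher at 72 h. From sham to 24 h, the level was 2.58-fold higher in WT (log2 ratio 1.37, 95% interval 1.34 to 1.39) and 1.58-fold higher in KO (0.66, 0.64 to 0.68). From 24 h to 72 h, it was 3.50-fold lower in WT and 4.71-fold lower in KO. After thinning each cell to 1000 UMIs, 38.5% and 47.6% of the class at sham, 58.3% and 61.6% at 24 h, and 39.1% and 33.6% at 72 h had a Ccl2 UMI, in WT and KO. In thinned B cells of the 4 ligation libraries, the share was 2.02%, 4.10%, 2.13% and 10.6%, with median depths before thinning of 2530 to 3033 UMIs. The unthinned shares in monocyte/macrophage cells were 59.8%, 66.6%, 76.4%, 82.2%, 66.7% and 41.0% in the same order, from WT and KO sham to WT and KO at 72 h.

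Ccl7, a second ligand of the receptor, was also highest at 24 h in both genotypes, and highest in the same class. In WT cells of that class at 72 h, Ccl7 was above its sham level, unlike Ccl2. Its level in monocyte/macrophage cells was 921, 1974 and 1105 CPM in WT and 1364, 1828 and 567 CPM in KO, at sham, 24 h and 72 h. KO at 72 h was the lowest of the 6. The log2 ratio of 24 h to sham was 1.10 (1.06 to 1.14) in WT and 0.42 (0.39 to 0.45) in KO, and that of 72 h to 24 h was -0.84 in WT and -1.69 in KO. Ccl7 was also detected largely in the cells that held Ccl2. Among thinned cells with a Ccl2 UMI, 44.9% to 57.6% had a Ccl7 UMI in the 6 libraries, against 5.07% to 10.1% of those without. Over the 57 sums of a class in a library with at least 50 cells, Ccl7 was the gene most like Ccl2 of 11206 genes (r = 0.962 of log2 levels, a description across sums that share libraries and depth). Rab3il1 was among the 5 genes most like Ccl2 and among the 5 most like Ccl7 (r = 0.834 and 0.851).

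Ccl12 UMIs lay almost wholly in monocyte/macrophage cells in the 5 deeper libraries, at 93.8% to 98.7%, against 69.5% in KO at 72 h. In monocyte/macrophage cells the level was 334, 605 and 626 CPM in WT and 344, 569 and 335 CPM in KO, at sham, 24 h and 72 h. Both genotypes were higher at 24 h than at sham, the WT class was at a like level at 72 h, and KO at 72 h lay near both sham libraries. The log2 ratio of 24 h to sham was 0.86 (0.80 to 0.92) in WT and 0.72 (0.67 to 0.78) in KO, and that of 72 h to 24 h was 0.05 (0.00 to 0.09) in WT and -0.76 (-0.82 to -0.71) in KO. The level at 72 h was lower than at 24 h in both subclusters with enough WT cells at these times. In WT, the log2 ratio of 72 h to 24 h was -1.41 (-1.55 to -1.27) in the subcluster led by Ppbp and -2.52 (17 against 85 UMIs) in classical monocyte-like cells, both described further on. The WT class lay in different clusters at these times, with 1.62% and then 47.9% in one led by Cxcl10 and 40.8% and then 16.3% in one led by Spp1. In KO at 72 h, pericytes held 452 CPM of Ccl12 (241 UMIs), above the 335 of macrophages, with macrophage markers at 54.4% of their macrophage level. In fibroblasts, Ccl12 had 1, 10 and 23 UMIs in WT and 9, 58 and 456 in KO, or 0.249 to 149 CPM. The genes most like Ccl12 over the 57 sums were Mrc1, the macrophage mannose receptor (r = 0.922), Slc7a8 (0.909) and C3ar1, the C3a receptor (0.904).

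Ccl8 was rare at sham and 24 h and abundant at 72 h. In monocyte/macrophage cells it was at 23.6, 8.22 and 371 CPM in WT and 16.2, 37.5 and 130.4 CPM in KO, at sham, 24 h and 72 h. WT at 72 h was the highest and KO at 72 h the second, with the other 4 libraries under 40 CPM. From 24 h to 72 h, the level was 45.1-fold higher in WT (71 against 10092 UMIs in libraries of unequal depth, log2 ratio 5.50, 5.16 to 5.85) and 3.48-fold higher in KO (694 against 1293 UMIs, 1.80, 1.67 to 1.93). Over the processing alternatives, these log2 ratios ranged from 4.25 to 7.77 in WT and from 1.58 to 3.81 in KO. From sham to 24 h, the log2 ratio was -1.52 (-1.92 to -1.14) in WT and 1.21 (0.94 to 1.48) in KO. These early ratios rest on few cells. The 1% of cells with the most Ccl8 held 77.5% to 90.1% of its UMIs in the 4 libraries of sham and 24 h and 52.5% and 58.3% in WT and KO at 72 h, and a single KO cell at 24 h held 116 of the 694 UMIs. With the top 1% of cells left out, the KO ratio of 24 h to sham was 0.11, and after thinning, the WT ratio was -0.32. For Ccl2, the top 1% of cells held 9.0% to 36.7% and for Ccr2 4.7% to 11.7%, with the KO library at 72 h the highest in both.

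The share of thinned monocyte/macrophage cells with a Ccl8 UMI was 1.17%, 0.743%, 0.593% and 1.22% at sham and 24 h, against 7.35% in WT and 6.04% in KO at 72 h, and no thinned B cell of the 4 ligation libraries had one. At sham, fibroblasts held 23.3% of all Ccl8 UMIs in WT and 35.5% in KO. Their level there, 20.2 and 18.1 CPM, was close to that in macrophages, and it was lower at 24 h, with 7.37 CPM in WT and 1.22 in KO (19 and 3 UMIs). The genes most like Ccl8 over the 57 sums were Gpnmb, which marks lipid-laden macrophages (r = 0.782), and G530011O06Rik (0.777).

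**Figure D3:**
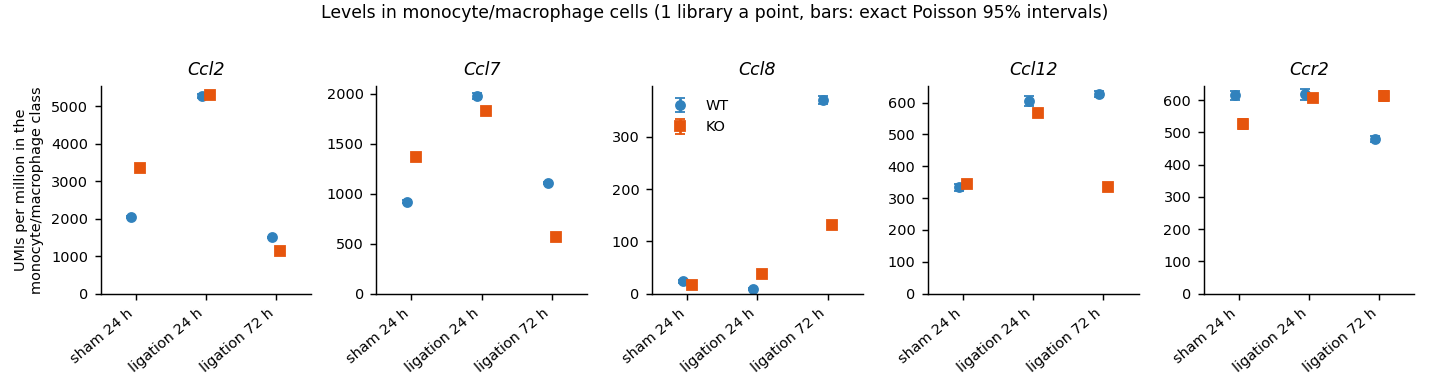
Level of the 5 genes in monocyte/macrophage cells (vertical axis, CPM on a linear scale from 0) at sham, 24 h and 72 h, 1 library a point, with WT as circles, KO as squares and exact Poisson 95% intervals as bars. Ccl2 and Ccl7 peak at 24 h, Ccl8 is at 371 CPM in WT and 130.4 in KO at 72 h, and Ccr2 lies between 479.7 and 618 CPM throughout.

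Ccr2, the receptor, differed little over time in its main class. In monocyte/macrophage cells it was at 615, 618 and 479.7 CPM in WT and 526, 607 and 612 CPM in KO, at sham, 24 h and 72 h. WT at 72 h was the lowest and the other 5 lay between 526 and 618 CPM. Monocyte/macrophage cells held 66.9% to 88.5% of the Ccr2 UMIs, and dendritic cells 9.19% to 24.5%. Dendritic cells were at 757, 661 and 675 CPM in WT and 651, 684 and 601 CPM in KO, so their level was at or above that of macrophages at each of the 3 times in WT. The share of thinned dendritic cells with a Ccr2 UMI was between 36.2% and 47.4%, and that of monocyte/macrophage cells between 33.3% and 39.7%, against 0% to 1.89% of endothelial cells. Unthinned, these shares were 73.8% to 94.8% of dendritic cells and 48.3% to 84.8% of monocyte/macrophage cells. The median depths of these classes were 3316 to 12278 UMIs in dendritic and 2003 to 4126 in endothelial cells.

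T or NK cells, which include effector lymphocytes known to carry the receptor, had 124 and 138 CPM of Ccr2 in WT and 56.7 and 278 in KO at 24 h and 72 h. In the KO library at 72 h these cells carried macrophage markers at 32.1% and C1q genes at 31.4% of their macrophage level, against 1.86% to 9.05% and 0.815% to 8.50% in the other 3. The part of these in the 278 CPM was not tested. Neutrophils had 1.44 to 21.2 CPM, with KO at 72 h the highest. After ligation, the ranges of receptor detection in cells with and without a Ccl2 UMI overlapped. Of thinned monocyte/macrophage cells with a Ccl2 UMI, 36.3% to 40.8% had a Ccr2 UMI in the 4 ligation libraries, against 35.6% to 40.4% of those without. At sham the shares were 40.5% against 29.3% in WT and 43.2% against 24.3% in KO. Ms4a6c (r = 0.963) and Ms4a6d (r = 0.932) were among the 5 genes most like Ccr2 over the 57 sums.

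Inside the monocyte/macrophage class, the subclusters with the highest level of each ligand were not those with the highest level of the receptor. The class was divided into 21 subclusters without use of the 5 genes, and levels over all libraries are given next. Classical monocyte-like cells (Plac8, Hp) held 1058 CPM of Ccr2, 1948 of Ccl2 and 0.298 of Ccl8. Resident macrophage-like cells (Lyve1, Vsig4, Cbr2) held 219 CPM of Ccr2 and 584 of Ccl12. Non-classical monocyte-like cells (Ace, Ear2, Treml4) held 28.0 CPM of Ccl2 and 3.14 of Ccl7 and were the lowest in Ccl2 of all subclusters that could be named by markers. A subcluster led by Apoc1, Plbd1 and Apoc2 had a receptor level like that of the classical monocyte-like cells, at 1091 CPM.

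The highest Ccl2 level was in a subcluster of 525 cells led by Cxcl3, Inhba and Hilpda, whose leading genes include the hypoxia-responsive Ero1l, Egln3 and Bnip3. It held 8826 CPM of Ccl2 and 2405 of Ccl7, and 0.342 of Ccl8. It made up 23.6% and 22.5% of the class in WT and KO at 24 h and at most 1.11% in the other 4 libraries, and at 24 h it held 32.7% and 35.7% of the class's Ccl2 UMIs. The highest Ccl7 level, 2905 CPM, was in a subcluster led by Ppbp, Pde4d and Pdpn with Spp1 and Arg1 among its top genes, which also held 6282 CPM of Ccl2. These pooled levels mix times. At 24 h alone, Ccl2 was at 7877 CPM in WT and 9366 in KO in the Cxcl3 subcluster. In the Ppbp subcluster it was at 7611 and 7360 CPM, so in WT the 2 were close.

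Ccl8 and Ccl12 were both highest in the subcluster of 666 cells led by Cxcl10, Ifit3 and Ifit2, genes that interferons induce. It held 833 CPM of Ccl8 and 1578 of Ccl12. These are the neighbouring genes whose upstream bases are shown above. The infarct macrophage-like cells (Gpnmb, Trem2, Fabp5) were next in Ccl8, with 327 CPM, followed by a subcluster led by H2-Aa with 187 CPM, of whose cells 92.4% came from the KO library at 72 h. The Cxcl10 subcluster made up 25.3% of the class in WT and 4.13% in KO at 72 h and held 59.1% and 19.2% of the Ccl8 UMIs there, and 57.5% and 33.3% of the Ccl12 UMIs. At 24 h in KO it had 24 cells and 34.0% of the Ccl8 UMIs, and in WT 4 cells and 0 of 71 UMIs. Another 9 subclusters had more markers of another cell type than of this class among their leading genes and are called mixed. The others were led by Ccl24, by Pclaf and by Prg4.

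**Figure D4:**
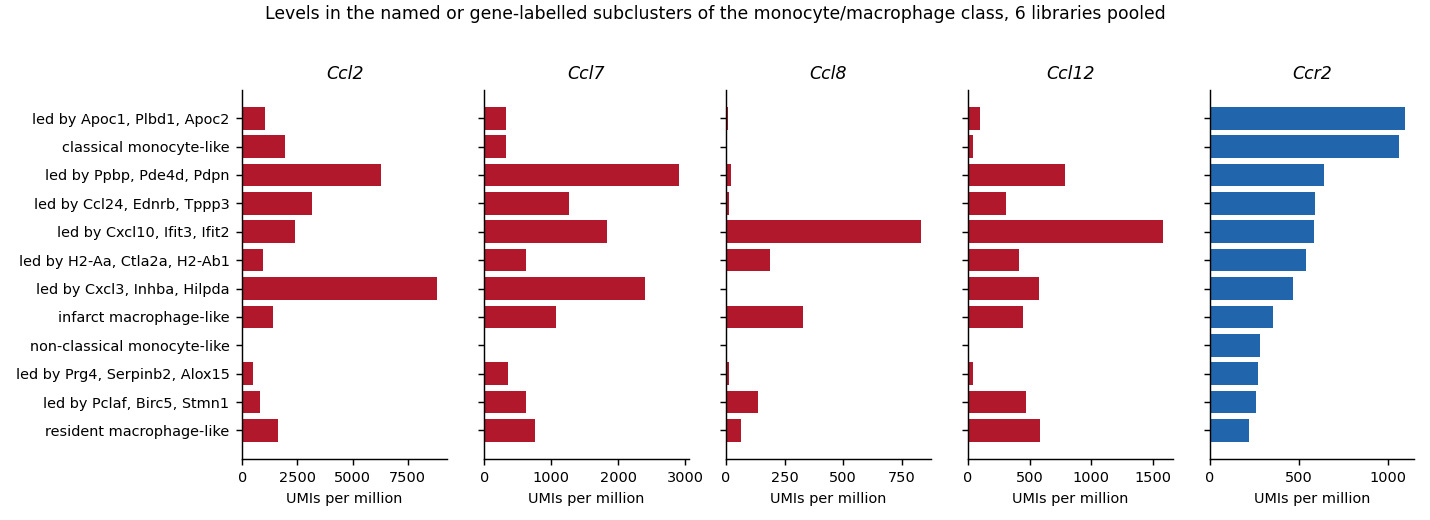
Level of the 5 genes (CPM over all libraries) in the subclusters of monocyte/macrophage cells. Ccl2 is highest in the Cxcl3 subcluster (8826 CPM), Ccl8 and Ccl12 in the Cxcl10 subcluster (833 and 1578 CPM), and Ccr2 in the Apoc1 subcluster and the classical monocyte-like cells (1091 and 1058 CPM).

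The step from sham to 24 h had unlike sizes, and for KO unlike signs, in the 4 subclusters with enough cells. Resident macrophage-like cells had 549 CPM of Ccl2 in WT sham and 2984 in WT at 24 h (log2 ratio 2.44, 2.34 to 2.55), and 1148 and 3114 CPM in KO (1.44, 1.37 to 1.51). The genotypes were close at 24 h and KO was the higher at sham. Cells led by Ccl24, Ednrb and Tppp3 had 1268 and 5664 CPM in WT (2.16, 2.11 to 2.21) and 2994 and 3850 CPM in KO (0.36, 0.32 to 0.40). Cells led by Ppbp had 4799 and 7611 CPM in WT (0.67, 0.62 to 0.71) and 7699.5 and 7359.8 CPM in KO (-0.07, -0.10 to -0.03), so in KO they were about as high at sham as after ligation. In the Ccl24 subcluster, the Ccl12 log2 ratios of 24 h to sham were 2.59 in WT and 0.70 in KO. Classical monocyte-like cells had a Ccl2 ratio of 0.40 (0.33 to 0.47) in WT and -0.60 (-0.66 to -0.54) in KO. Their Ccr2 level was 1214, 1025 and 1022 CPM in WT and 1153, 1003 and 1077 CPM in KO, and the 3 genotype ratios lay between -0.07 and 0.08.

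Over the 5 genes, the counts past a 2-fold ratio in monocyte/macrophage cells from sham to 24 h were 2 higher (Ccl2, Ccl7) and 1 lower (Ccl8) in WT. In that comparison 2.63% of 9752 measured genes were at least 2-fold higher and 3.91% lower, and the median log2 ratio was 0.86 for the 5 genes and -0.12 for all genes. In KO, 1 gene (Ccl8) was higher and 0 lower, beside 1.74% and 7.61% of all genes, with medians of 0.66 and -0.28. From 24 h to 72 h, Ccl8 was higher and Ccl2 lower in WT, beside 11.4% and 7.32% of all genes, with medians of -0.37 and 0.03. In KO, Ccl8 was higher and Ccl2 and Ccl7 were lower, beside 9.66% and 2.81%, with medians of -0.76 and 0.15. A list of 16 genes that respond to tissue dissociation was measured in these comparisons too. Its median log2 ratio from sham to 24 h was 0.62 in WT and 0.19 in KO. From 24 h to 72 h it was -1.18 in WT and -0.09 in KO, so in each step it lay further from 0 in WT. Neutrophil markers in the class summed to 448, 2030 and 175 CPM in WT and 506, 2968 and 2237 CPM in KO, at sham, 24 h and 72 h. The part of handling and of these markers in the Ccl2 and Ccl7 values was not tested.

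Comparing KO with WT at sham, Ccl2 and Ccl7 were the members that stood higher in KO monocyte/macrophage cells. Ccl2 was at 3355 CPM in KO and 2047 in WT (log2 ratio 0.71, 0.69 to 0.74), and Ccl7 at 1364 and 921 (0.57, 0.53 to 0.60). Ccl12 was at 344 and 334 CPM (0.05, -0.02 to 0.12), Ccr2 at 526 and 615 (-0.23, -0.28 to -0.17), and Ccl8 had 138 and 261 UMIs (-0.54, -0.85 to -0.24). None of the 5 passed a 2-fold ratio, beside 2.08% of all genes higher and 0.361% lower, and the medians were 0.05 for the 5 and 0.03 for all genes. The same direction for Ccl2 was measured in each of 4 subclusters with enough cells, at 1.24 in the Ccl24 subcluster, 1.06 in resident macrophage-like cells, 0.69 in classical monocyte-like cells and 0.68 in the Ppbp subcluster. Ccl12, near equal over the class, had no common direction in them. Its ratios were 1.56 in classical monocyte-like cells (104 against 53 UMIs), 0.89 in the Ccl24, 0.56 in the Ppbp and -0.39 in the resident macrophage-like subcluster. The handling list had a median of -0.05. Endothelial markers in the class summed to 868 CPM in KO and 234 in WT, and their part in these ratios was not tested.

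At 24 h after ligation the genotypes were close for 4 of the 5 genes in monocyte/macrophage cells. Relative to WT, the KO log2 ratio was 0.01 (-0.01 to 0.02) for Ccl2, -0.11 (-0.14 to -0.08) for Ccl7, -0.09 (-0.14 to -0.04) for Ccl12 and -0.03 (-0.08 to 0.02) for Ccr2. Ccl8 was the exception, at 37.5 CPM in KO and 8.22 in WT (694 and 71 UMIs, 2.19, 1.83 to 2.56). It was the 1 member past a 2-fold ratio, beside 0.465% of all genes higher and 1.45% lower. Thinned cells gave a Ccl8 ratio of 1.13. The 3 subclusters with enough Ccl8 UMIs did not share a direction, at 1.92 in resident macrophage-like cells (49.8 against 13.1 CPM), 1.28 in the Ccl24 subcluster (55 against 16 UMIs) and -0.63 (-1.15 to -0.09) in the Ppbp subcluster (29.2 against 45.2 CPM, 120 and 42 UMIs). Some subclusters were also less close than the class for the other ligands. Ccl12 was at -1.0 in the Ccl24 subcluster, -0.80 in resident macrophage-like, -0.69 in classical monocyte-like and -0.36 in Ppbp cells. In the Cxcl3 subcluster it was instead higher in KO, at 0.33 (0.22 to 0.44). Ccl7 was at -0.63 and -0.70 in the Ccl24 and classical monocyte-like cells. Ccl2 was at -0.56 in the Ccl24 subcluster and 0.25 in the Cxcl3 subcluster. The medians were -0.03 for the 5 and -0.13 for all genes, and the handling list had -0.43.

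At 72 h the 4 ligands were lower in KO than in WT monocyte/macrophage cells and the receptor was higher. The log2 ratios of KO to WT were -0.42 (-0.45 to -0.39) for Ccl2, -0.96 (-1.0 to -0.92) for Ccl7, -1.51 (-1.59 to -1.42) for Ccl8 and -0.90 (-0.96 to -0.85) for Ccl12, and 0.35 (0.31 to 0.40) for Ccr2. Only Ccl8 passed a 2-fold ratio, beside 4.14% of all genes higher and 0.639% lower, and the medians were -0.90 for the 5 and 0.03 for all genes. The class held different cells in the 2 libraries. In WT, 47.9% lay in a cluster led by Cxcl10, Ms4a7 and Syngr1, against 12.8% in KO, and in KO 55.0% lay in a cluster led by Igkc and Ighm, with a median of 829 UMIs, against 3.35% in WT. Restricted to cells with at least 1500 UMIs, the ratios were -0.33, -0.91, -1.73, -0.86 and 0.41 in the same order, and with mixed subclusters left out, -0.28, -0.85, -1.40, -0.81 and 0.44. Averaged over cells, the Ccl8 ratio was -0.52 and the Ccr2 ratio -0.12, and after thinning to equal depth, they were -0.89 and -0.03.

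Within subclusters at 72 h, Ccl8 in the Cxcl10 subcluster was at 354 CPM in KO and 893 in WT (log2 ratio -1.33, -1.52 to -1.15), and in infarct macrophage-like cells at 208 and 364 CPM (-0.81, -0.95 to -0.67). In the cycling cells led by Pclaf, Birc5 and Stmn1, Ccl8 was higher in KO, at 178 against 140 CPM (0.35, 0.07 to 0.61). Ccl12 in the Cxcl10 subcluster was near equal, at 1581 and 1467 CPM (0.11, 0.02 to 0.20). It was lower in KO in the Ppbp, cycling and infarct macrophage-like cells, at -1.0, -0.70 and -0.26, and higher in the Apoc1 subcluster, at 0.72. Ccl7 was lower in KO in the cycling, Ppbp, infarct macrophage-like and Cxcl10 subclusters, with ratios of -1.49, -0.88, -0.73 and -0.43. It was higher in the Apoc1 subcluster, at 0.65. Ccl2 was higher in KO in classical monocyte-like cells, at 1119 against 715 CPM (0.65, 0.53 to 0.76), and lower in the cycling cells led by Pclaf, Birc5 and Stmn1, at -1.04. The class-level order of the genotypes was therefore not shared by every subcluster. Neutrophil markers in the whole class summed to 2237 CPM in KO and 175 in WT at 72 h and endothelial markers to 641 and 287, and the handling list had a median of 0.73. The part of these in the ratios was not tested.

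**Figure D5:**
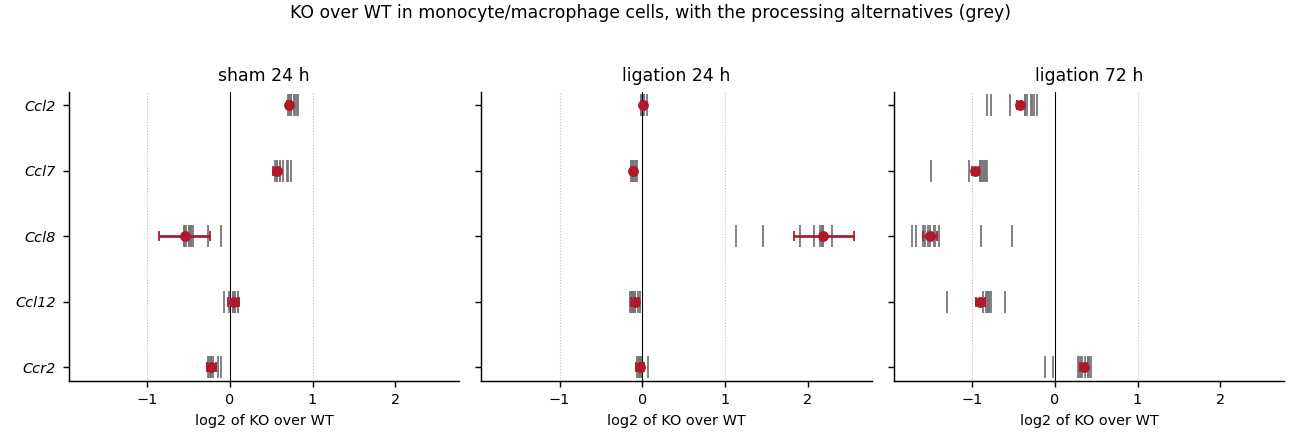
Log2 ratio of KO to WT (horizontal axis) for the 5 genes in monocyte/macrophage cells, 1 panel each for sham, 24 h and 72 h. Red points with bars are the ratios and their exact conditional 95% intervals, grey ticks are the same ratios under the other processing settings, and dotted lines mark 2-fold. The 4 ligands lie below 0 at 72 h under every setting plotted, Ccl8 lies at 2.19 at 24 h, and the Ccr2 ticks at 72 h reach -0.12.

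Fibroblasts held more Ccl2 and Ccl7 UMIs than any other class outside the leukocytes in each of the 6 libraries. Ccl2 was at 171, 1092 and 355 CPM in WT and 378, 1306 and 659 CPM in KO, at sham, 24 h and 72 h. Each genotype was highest at 24 h. The log2 ratio of 24 h to sham was 2.67 (2.55 to 2.80) in WT and 1.79 (1.70 to 1.87) in KO for Ccl2, and 1.49 (1.38 to 1.60) and 1.07 (0.95 to 1.18) for Ccl7. Of all genes measured in fibroblasts, 4.96% in WT and 4.05% in KO were at least 2-fold higher in that step, and 4.43% and 9.8% were lower. Of the 5 genes, 2 were higher and 1 (Ccl8) lower of 3 measured in WT, and 3 higher and 1 (Ccl8) lower of 5 measured in KO, where Ccl12 was the third, with 58 against 9 UMIs. The summed macrophage markers in fibroblasts were 0.699% to 2.47% of their level in macrophages in the 4 libraries of sham and 24 h, where Ccl2 was at 8.36% to 24.7% of its macrophage level.

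Within fibroblasts, among clusters with at least 20 cells, Ccl2 and Ccl7 were highest in the activated cells led by Cxcl5, Cthrc1 and Tnc in the 5 deeper libraries. In KO at 72 h they were instead highest in 389 cells led by Scn7a, at 948 CPM of Ccl2 and 597 of Ccl7 with 19677 CPM of macrophage markers, against 544 and 273 in the activated cells. In the activated cells, Ccl2 was at 893, 2177 and 370 CPM in WT and 2045, 1974 and 544 CPM in KO (20, 60 and 98 cells in WT and 31, 79 and 851 in KO). In the cells led by Clec3b, Dpep1 and Tnxb it was at 34.7, 275 and 167 CPM in WT and 91.2, 307 and 138 in KO. From 24 h to 72 h over all fibroblasts, Ccl2, Ccl7 and Ccr2 were at least 2-fold lower and Ccl8 higher in WT, beside 15.7% of all genes lower and 6.4% higher. In KO, Ccl8, Ccl12 and Ccr2 were higher and none of the 5 lower, beside 10.5% and 8.36%. The activated cells were 5.32% and 6.68% of fibroblasts at sham and 30.0% and 41.8% at 24 h, in WT and KO. The fibroblasts led by Dkk3 and Wif1 had at most 27.6 CPM of Ccl2 in the 3 libraries with at least 25 of these cells.

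KO over WT in fibroblasts, the Ccl2 log2 ratio was 1.14 (1.01 to 1.27) at sham, 0.26 (0.18 to 0.33) at 24 h and 0.89 (0.79 to 1.0) at 72 h, and at 24 h it was -0.29 without doublet removal. At sham, Ccl2 alone of 3 measured members was at least 2-fold higher in KO and none was lower, beside 1.33% and 0.594% of all genes. That Ccl2 ratio was 0.48 without doublet removal and 0.99 without the clusters that came almost wholly from 1 library, both under 2-fold. The C1q genes, which macrophages make, were at 1.66% of their macrophage level in the KO sham fibroblasts and 0.258% in WT (360 and 47 UMIs). At 24 h it was Ccl12 alone of 4 (58 against 10 UMIs, 2.60, 1.62 to 3.73), beside 0.607% higher and 2.67% lower. Of the 58 UMIs, 53 lay in the cells led by Clec3b, whose C1qa was at 21.4 CPM against 0 in WT, and over all fibroblasts the C1q genes had 70 UMIs in KO and 7 in WT. The part of C1q-bearing RNA in these ratios was not tested. At 72 h, Ccl12 and Ccr2 in KO fibroblasts had ratios of 4.38 (456 against 23 UMIs) and 5.21 (598 against 17 UMIs), beside 9.24% of all genes higher and 3.67% lower, and no member was lower by 2-fold. In that library the summed macrophage markers in fibroblasts were 41.7% of their level in macrophages, against 6.72% in WT, and the C1q genes were 40.5% against 0.158%. Of the KO cells 30.7% lay in a cluster led by Scn7a, Fxyd1 and Sfrp1 with 370.5 CPM of Ccr2 and 19677 CPM of macrophage markers. The activated cells, 67.2% of the class, had 112 CPM of Ccr2 (203 of the 598 UMIs) and 5732 CPM of macrophage markers. They also held 164 of the 456 Ccl12 UMIs. In the 25 cells led by Clec3b, Ccr2 was at 11.5 CPM. With the clusters that came almost wholly from 1 library left out, the Ccl2 ratio at 72 h was 0.56 and the Ccl7 ratio 0.13.

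Dendritic cells held enough cells for a genotype comparison at 72 h. Ccl2 was at 550.2 CPM in KO and 422 in WT (log2 ratio 0.38, 0.30 to 0.47), Ccl12 at 195 and 165 (0.24, 0.10 to 0.39) and Ccr2 at 601 and 675 (-0.17, -0.25 to -0.09). Their Ccl8 was at 26.7 and 9.14 CPM, and 0 UMIs were counted in dendritic cells of the 4 earlier libraries. In this class at 72 h, KO and WT differed in macrophage markers (74.3% and 64.3% of the macrophage level), C1q genes (90.6% and 57.9%), neutrophil markers (960.1 and 73.0 CPM) and median depth (3316 and 11835.5 UMIs), and the part of these in the ratios was not tested. In neutrophils at 24 h, Ccl2 was at 74.0 CPM in KO and 29.0 in WT (1.35, 1.08 to 1.64). Macrophage markers there were at 5.39% and 4.93% and C1q genes at 1.02% and 0.332% of their macrophage level. Ccl2 in B cells, not a known source, was also higher in KO at 24 h. It was at 1.199% of its macrophage level in KO and 0.442% in WT (22 and 8 UMIs). At 24 h it was also higher in KO in the endothelial clusters led by Aqp1 (66.6 against 19.7 CPM) and Rbp7 (79.8 against 27.4). In the one led by Cytl1 it was lower in KO (42.1 against 528). The part of macrophage markers, C1q genes and free RNA in the neutrophil ratio was not tested. In endothelial cells, Ccl2 was highest in the cluster led by Cytl1, Vwf and H19 in the 3 WT libraries and KO sham, but not in KO at 24 h or 72 h. That cluster had 337, 528 and 64.4 CPM in WT and 415, 42.1 and 33.0 in KO, from 99, 29 and 21 cells in WT and 113, 34 and 33 in KO. These levels rest on 250, 152 and 14 UMIs in WT and 308, 9 and 4 in KO. The cluster led by Rbp7, Stmn2 and Sema3g was at 79.8 and 39.2 CPM in KO at 24 h and 72 h (39 and 3 UMIs). The order of these 2 clusters in KO at 72 h thus rests on 4 against 3 UMIs.

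Other genes of the pathway were taken from a list of 27, of which 18 or 19 were measured in monocyte/macrophage cells. From sham to 24 h in WT, the inducing cytokines Il6 and Il1b were at least 2-fold higher (log2 ratios 2.32 and 1.13) and none was lower, beside 2.63% and 3.91% of all genes, and in KO none passed in either direction, beside 1.74% and 7.61%. The list medians were 0.22 and 0.01, beside -0.12 and -0.28 for all genes. From 24 h to 72 h in WT, 8 of 19 genes were lower and none higher, beside 7.32% and 11.4% of all genes. They were the receptor Ccr1 (-1.07), the atypical receptor Ccrl2 (-1.03), the cytokines Il1b (-2.30), Tnf (-1.49) and Il6 (-5.82), and the inhibitors of inflammatory signalling Nfkbia (-1.60), Tnfaip3 (-2.0) and Zc3h12a (-1.59). In KO over the same step, Il6 was lower (-3.35) and Dpp4, a protease that trims chemokines, was higher (2.03), beside 2.81% and 9.66% of all genes. The list medians were -0.63 and 0.14, beside 0.03 and 0.15. Over sham, 24 h and 72 h, neutrophil markers in the class summed to 448, 2030 and 175 CPM in WT. In KO they summed to 506, 2968 and 2237 CPM. The handling list had medians of 0.62 and then -1.18 in WT and 0.19 and then -0.09 in KO over these 2 steps. The part of these markers and of handling in the pathway values was not tested.

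Between genotypes, no listed gene passed at sham, beside 2.08% of all genes higher and 0.361% lower, with medians of 0.10 for the list and 0.03 for all genes. At 24 h, Il6 (-2.09, at 10.2 CPM in KO and 43.5 in WT) and Tnfaip3 (-1.17) were lower in KO and none was higher, beside 1.45% and 0.465% of all genes, with medians of -0.31 and -0.13. At 72 h, Il1b (1.77, at 701 and 205 CPM), Ccrl2 (1.38), Tnfaip3 (1.25) and Tnf (1.07) were higher in KO and none was lower, beside 4.14% and 0.639% of all genes, with medians of 0.17 and 0.03. Il1b and Tnf were thus higher in the library in which the 4 ligands were lower, and Il6 was too sparse for a ratio. Neutrophils also carry Il1b, Ccrl2 and Tnf, and neutrophil markers in the class were at 2237 CPM in KO and 175 in WT. The part of these markers in the 4 values was not tested.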

How the data were processed

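The authors deposited 6 matrices of UMI counts, whole numbers for each gene in each cell, made with Cell Ranger 6.0.0 on the mm10 build, per the submitters' processing notes. Filters applied before deposit are not given in the sources used here. Kept cells had at least 200 genes and at most 20% of UMIs from mitochondrial genes. Scrublet's automatic threshold marked 0 to 50 cells per library, so the highest scores were removed at 0.8% per 1000 deposited cells.

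For clustering, each cell was scaled to 10000 UMIs and put on a log scale, and 2000 variable genes gave 30 principal components, 20 neighbours and Leiden clusters at resolution 1 (scanpy 1.11.5, Python 3.11.15), with no correction between libraries. The 5 genes, their pathway list, Trpm4 and the mitochondrial, ribosomal protein and hemoglobin genes were left out of the variable genes. Clusters were named from marker lists, with at least 3 detected markers, and monocyte/macrophage cells were clustered again by the same steps. Names here are rebuilt and may differ from those of the study.

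UMIs were summed per class and library with at least 50 cells and scaled to CPM. Ratios over a whole class needed 100 cells in both libraries and 50 UMIs over the pair, with the exact conditional interval of 2 Poisson counts (scipy 1.17.1), and a library with 0 UMIs was set to 3 counts. Ratios inside a subcluster were also made below 100 cells, down to 59 cells in a library. Shares have exact Clopper-Pearson intervals. "Called" means a ratio of at least 2-fold. The ratio step was tested on simulated counts. The likeness of genes is Pearson's r of log2(CPM + 10) over sums with at least 500 UMIs of the gene, and the 5 most alike were eligible to be named, of which some are not reported here. The other named genes are the 5 genes, listed pathway genes past 2-fold and the leading genes of clusters.

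Gene positions come from the GRCm38 annotation and upstream bases from RefSeq. The 5 genes and all lists were chosen with earlier results of these data known. Alternatives were 2 other Leiden resolutions, a mitochondrial limit of 10%, a minimum of 1500 UMIs, no doublet removal, the 5 genes and their list allowed for clustering, thinning to 1000 UMIs, means over cells and leaving out the top 1% of cells. Leaving out clusters with over 90% of cells from 1 library, and leaving out mixed subclusters, were added after seeing the data.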

Additional observations from a re-analysis of the deposited data

Results flagged for a closer look

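Among the 4 classes with the most cells, there were 3 cases in which the counting intervals of the same step lay on opposite sides of 0 in the genotypes, and the difference was not tested because each group is 1 library. In monocyte/macrophage cells, Ccl8 had a log2 ratio of 24 h after ligation to sham of -1.52 in WT and 1.21 in KO. These are ratios of 71 to 261 UMIs and of 694 to 138 UMIs. In the same cells, Ccl12 had a log2 ratio of 72 h to 24 h of 0.05 (0.0491 before rounding) in WT and -0.76 in KO. In fibroblasts, Ccr2 had a log2 ratio of 72 h to 24 h of -1.36 in WT (17 against 35 UMIs) and 4.46 in KO (598 against 22 UMIs), and macrophage markers in the KO fibroblasts of 72 h were at 41.7% of their level in macrophages.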

How the results depend on the processing

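No paired analysis was possible because each group is 1 library and the labels give no shared replicate. The 2-fold counts kept their value under most alternatives. The WT count lower at 24 h than at sham, 1 gene, became 0 with means over cells and 0 after thinning. The KO count higher in that step, 1 gene, became 0 without the top 1% of cells and 0 without mixed subclusters. The count lower in KO at 72 h, 1 gene, became 0 after thinning and 3 without the top 1% of cells. The cause was not tested.

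Signs reversed for few of the ratios whose interval left out 0, which are listed next. Other ratios, with intervals that included 0, also changed sign under some setting. In fibroblasts, KO over WT, Ccl8 at 72 h went from 0.38 to as low as -1.19. Ccr2 at 24 h went from -0.61 to as high as 1.08. At Leiden resolution 2, Ccl12 from 24 h to 72 h in WT monocyte/macrophage cells was -0.025 and Ccl2 in KO endothelial cells 2.17. With the 10% mitochondrial limit, endothelial cells gave 2.63 for that Ccl2 step, -0.51 for Ccl7 in KO over WT at sham, -0.59 and -2.15 for Ccl2 and Ccl7 from sham to 24 h in WT, and -1.82 and -2.13 in KO. In fibroblasts, Ccl2 in KO over WT at 24 h was -0.29 without doublet removal, Ccl7 in that comparison 0.011 without the top 1% of cells, and Ccl7 from 24 h to 72 h in KO 0.25 after thinning. Ccr2 in KO over WT monocyte/macrophage cells at 72 h was -0.12 as a mean over cells and -0.027 after thinning. Ccl2 from 24 h to 72 h in WT neutrophils was -0.10 without the top 1%. The monocyte/macrophage ratios of Ccl2 and Ccl7 that exceeded 0.3 in size kept their sign in all 11 alternatives. The depth of the KO library at 72 h limits every value that uses it, and genotype and library cannot be told apart.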
